A study of Mus musculus with 4 samples.

Results

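The 10 genes described here encode the enzymes that make and split arginine and the enzymes and regulators of polyamine metabolism. They were measured in libraries of sorted group 2 innate lymphoid cells (ILC2s) of mouse fat. The genes are Ass1, Asl, Arg1, Odc1, Oaz1, Oaz2, Azin1, Srm, Sms and Sat1. All 10 were found by gene symbol in a table of 19088 genes. They were chosen by their function and on earlier KO against WT results from these same libraries, so the KO against WT values of these genes are given as a description. No p is given for a member, and the count of members called in the test over all genes is stated as part of what chose them. ILC2s were sorted from the epididymal adipose tissue of C57BL/6 male mice that were 8 weeks old. The WT group (genotype R5/+) and the KO group (genotype R5/+Stk11f/f) had 2 libraries each. Both groups carry the R5 allele, so the groups differ by the floxed Stk11 alleles, and the labels do not name the cells in which R5 acts. The labels do not say whether libraries came from separate animals or pools, so the spread between 2 libraries may be technical. Stk11 encodes LKB1, a kinase upstream of AMPK, and by its title the study concerns LKB1 in the function of adipose ILC2s.

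ILC2s are tissue-resident lymphocytes that make type 2 cytokines, and mouse ILC2s are known for a high level of arginase 1. Argininosuccinate synthase (Ass1) joins citrulline and aspartate, and argininosuccinate lyase (Asl) splits the product into arginine and fumarate. Arginase 1 (Arg1) cuts arginine into urea and ornithine. Ornithine decarboxylase (Odc1) turns ornithine into putrescine, the first polyamine, which spermidine synthase (Srm) and spermine synthase (Sms) extend. Antizymes (Oaz1, Oaz2) bind ornithine decarboxylase and send it to the proteasome, the antizyme inhibitor (Azin1) takes antizyme away from it, and Sat1 acetylates spermidine and spermine for breakdown or export.

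Stk11 stood at 43.1 and 39.1 FPKM in WT, against 31.9 and 16.6 FPKM in KO. FPKM are fragments mapped to a gene, scaled by its transcript length and by the mapped fragments of the library. The fitted difference of Stk11 was -0.81 on the log2 scale (SE 0.37, adjusted p = 0.548, limma) and was not called. Fragments of Stk11 were still counted in both KO libraries. A value for the whole gene does not show which exons they came from, so it cannot tell how complete the deletion was. The steps between low FPKM values gave a rough depth of 18300000 to 21200000 fragments a library. The estimate is rough because 36 to 40.8% of those values lay within 0.1 of a whole fragment, where an even spread gives 20%. The 14 ILC2 markers summed to 9379 and 9486 FPKM in WT and to 9334 and 9167 FPKM in KO, a sum in which Id2 alone stood at 4870 to 5317 FPKM. Of the 14, 4 were lower in both KO libraries (Rora, Ptprc, Thy1 and Il1rl1), where 20.6% of all genes tested were. Of the same 14, 1 was higher (Icos), where 18.5% of all genes tested were. The sum thus does not describe each marker. Markers of other cells were present too. All 9 mast cell markers found in the table were higher in both KO libraries, where 18.5% of all genes tested were. The mast cell sum, 15984 and 13391 FPKM in WT and 24998 and 39221 FPKM in KO, exceeded the ILC2 sum in every library. Sums over different genes do not give shares of cells. The 5 red blood cell markers summed to between 26662 FPKM (KO replicate 2) and 84123 FPKM (WT replicate 2). Bulk values cannot tell fewer cells of a type from less RNA per cell. Over the 9818 genes tested (those whose mean over the 4 libraries reached 1 FPKM), 21 were called at an adjusted p under 0.05 (limma, Benjamini-Hochberg), and 901 had an unadjusted p under 0.05.

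Together the 10 genes made up 0.343% and 0.337% of the summed FPKM in WT, against 0.467% and 0.455% in KO. In WT the order of mean levels, which FPKM sets per length of transcript, was Oaz1, Odc1, Arg1, Sat1, Ass1, Azin1, Sms, Asl, Srm and Oaz2. The libraries of Odc1 and Arg1, of Ass1 and Azin1, and of Srm and Oaz2 overlapped in WT, so the order within those pairs is not settled. In KO, Odc1 stood first and Oaz1 next, with Sat1, Arg1, Ass1, Azin1, Sms, Oaz2, Srm and Asl following. In KO the libraries of Sat1 and Arg1, of Sms and Srm, of Oaz2 and Srm and of Srm and Asl overlapped, so those orders are not settled either. Both KO libraries lay above both WT libraries in 4 of the 10 genes (Ass1, Odc1, Oaz2 and Sms), where 18.5% of all genes tested did so. Both KO libraries lay below both WT libraries in 2 of the 10 (Arg1 and Azin1), against 20.6% of all genes tested. The other 4, Asl, Oaz1, Srm and Sat1, overlapped. Of the 10 genes, 2 were called higher (Ass1 and Odc1), beside 0.163% of all genes tested, and 0 were called lower, beside 0.0509% (0.214% in either direction; limma, adjusted p under 0.05). These calls are among the results by which the genes were picked and support nothing further. No member was called with a pseudocount of 0.1, without a filter on low values, with median-ratio or quantile scaling, without the trend and robust options, or with any 1 library left out. The median log2 fold change of the 10 genes was 0.10, and that of all genes tested was -0.01.

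**Figure D1:**
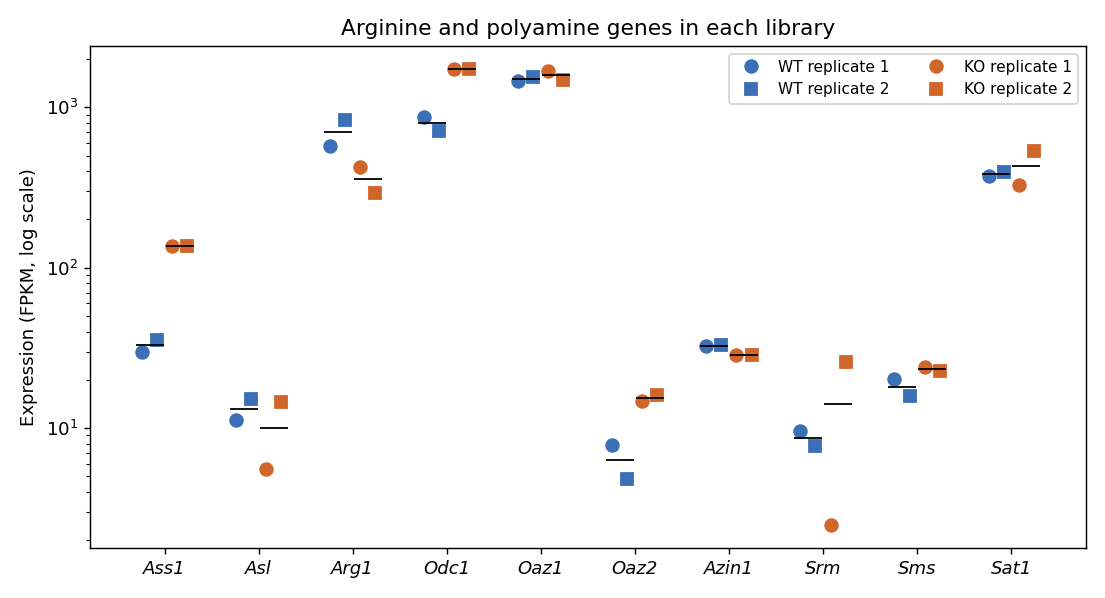
FPKM of the 10 genes on a log axis in WT (blue) and KO (orange) libraries, with circles for replicate 1, squares for replicate 2 and black lines for group means (n = 2). Ass1, Odc1 and Oaz2 sit apart upward in KO, Arg1 sits apart downward, and the KO libraries of Srm lie at 2.49 and 25.8 FPKM on either side of WT.

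Of the enzymes that make arginine, Ass1 stood higher in KO while Asl did not separate the groups. Ass1 (gene 11898) was at 29.9 and 35.6 FPKM in WT, against 137 and 137 FPKM in KO. The KO libraries differed by less than 1 FPKM from each other and lay far above both WT libraries. The log2 fold change, on the log2(FPKM + 1) scale as are those that follow, was 2.04 (SE 0.26), or 4.10-fold. Ass1 ranked above 78.0% and 80.9% of tested genes in the WT libraries and above 92.1% and 91.8% in the KO libraries. Asl (gene 109900) was at 11.2 and 15.2 FPKM in WT, against 5.52 and 14.6 FPKM in KO. KO replicate 1 was the lowest library and KO replicate 2 lay within the WT range, so the log2 fold change of -0.48 (SE 0.50) became 0.15 without KO replicate 1. The ratio of Ass1 to Asl FPKM was 2.67 and 2.34 in WT and 24.8 and 9.42 in KO. Such a ratio within a library is the same under any scaling of that library's total.

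The bases before the annotated starts of Ass1, Odc1 and Oaz2 are printed because these are the members at 2 or more times the WT mean in both KO libraries. They are RefSeq sequences of GRCm38.p6, each on the plus strand and upstream of the whole gene, from chr2:31470020-31470269 (Ass1), chr12:17544623-17544807 (Odc1) and chr9:65676298-65676547 (Oaz2). Capitals mark the motifs found.
Ass1: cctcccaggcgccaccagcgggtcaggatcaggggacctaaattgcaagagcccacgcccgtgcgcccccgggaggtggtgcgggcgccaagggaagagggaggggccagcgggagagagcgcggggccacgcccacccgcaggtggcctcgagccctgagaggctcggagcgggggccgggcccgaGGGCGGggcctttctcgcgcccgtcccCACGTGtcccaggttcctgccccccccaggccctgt
Odc1: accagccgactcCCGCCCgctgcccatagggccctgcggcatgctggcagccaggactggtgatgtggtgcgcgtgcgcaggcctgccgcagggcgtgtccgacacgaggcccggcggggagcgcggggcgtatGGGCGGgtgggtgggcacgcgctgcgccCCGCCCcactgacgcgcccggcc
Oaz2: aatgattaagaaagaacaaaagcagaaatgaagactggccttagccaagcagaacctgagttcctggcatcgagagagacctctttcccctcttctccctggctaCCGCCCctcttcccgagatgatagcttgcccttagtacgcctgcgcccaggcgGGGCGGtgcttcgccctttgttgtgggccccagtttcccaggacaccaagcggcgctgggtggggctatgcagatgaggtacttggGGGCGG

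The search covered both strands of the 250 bases before each start, for the E-box CACGTG (bound by Myc and related factors), the GC box GGGCGG (bound by Sp1), the cAMP response element TGACGTCA, the AP-1 site TGANTCA, the C/EBP-ATF composite TGATGNAA and the TATA box TATAAA. No match overlapped one of a different motif. Ass1 held an E-box 31 to 36 bases before its start and a GC box 58 to 63 bases before it. Odc1 held 4 GC boxes, 1 of which lies past the printed stretch because the table's start is downstream of the outermost start of the gene. Oaz2 held 3 GC boxes. Of 32851 start windows of the same length, of which a gene may have several, 6.02% held the E-box and 32.7% the GC box. The printed stretches held 75.6% (Ass1), 77.8% (Odc1) and 58.0% (Oaz2) G and C, and the median of all windows was 52.4%. The other 4 motifs, held by 1.55% (cAMP response element), 6.75% (AP-1), 3.45% (composite) and 12.4% (TATA box) of windows, were not among the letters of any window of the 6 members in the promoter table, which are Ass1, Odc1, Oaz1, Oaz2, Sms and Sat1. Among those 6, an E-box was also found before 1 start of Sms, at 191 to 196 bases, and GC boxes before Sat1 and before the other start of Sms.

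Arg1, the enzyme that splits arginine, stood lower in KO. Arg1 (gene 11846) was at 575 and 835 FPKM in WT, against 424 and 294 FPKM in KO. Both KO libraries lay below both WT libraries, and the gap between KO replicate 1 and WT replicate 1 was smaller than the spread within WT. The log2 fold change was -0.97 (SE 0.25), or 0.51-fold. It was -0.70 without WT replicate 2, -0.71 without KO replicate 2 and -1.24 without WT replicate 1. Even in KO, Arg1 ranked above 96.6% and 95.4% of tested genes. The ratio of Ass1 to Arg1 was 0.0521 and 0.0426 in WT and 0.323 and 0.467 in KO.

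Ornithine decarboxylase and 1 of its antizymes stood higher in KO, while the main antizyme and the antizyme inhibitor differed little. Odc1 (gene 18263) was at 872 and 715 FPKM in WT, against 1730 and 1742 FPKM in KO. The KO libraries were close to each other and above both WT libraries. The log2 fold change was 1.14 (SE 0.16), or 2.20-fold. Odc1 ranked above 98.1% and 97.6% of tested genes in WT and above 99.2% and 99.1% in KO. Oaz1 (gene 18245), the more abundant antizyme, was at 1453 and 1545 FPKM in WT, against 1691 and 1472 FPKM in KO. These groups overlapped, with a log2 fold change of 0.07 (SE 0.15). Oaz2 (gene 18247), which lay far below Oaz1, was at 7.87 and 4.84 FPKM in WT, against 14.8 and 16.1 FPKM in KO. The groups were apart, and a log2 fold change of 1.19 (SE 0.42) ran from 0.89 without WT replicate 2 to 1.49 without WT replicate 1. Azin1 (gene 54375) was at 32.3 and 33.0 FPKM in WT, against 28.7 FPKM in both KO libraries. The groups did not overlap, but the log2 fold change was small, at -0.18 (SE 0.30).

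Set against Oaz1 and Azin1 within each library, Odc1 was higher in KO than in WT, and set against Oaz2 it was not. Odc1 over Oaz1 was 0.60 and 0.46 in WT and 1.02 and 1.18 in KO. Odc1 thus stood below its main antizyme in both WT libraries and slightly above it in both KO libraries. Odc1 over Azin1 was 27.0 and 21.7 in WT and 60.4 and 60.8 in KO. Odc1 over Oaz2 stood at 111 and 148 in the WT libraries, against 117 and 108 in the KO libraries, so the groups overlapped. Odc1 over Arg1, the enzyme that supplies its substrate, was 1.52 and 0.86 in WT and 4.08 and 5.93 in KO. These are ratios of transcripts, and antizyme protein also depends on a ribosomal frameshift that polyamines promote, which was not measured.

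**Figure D2:**
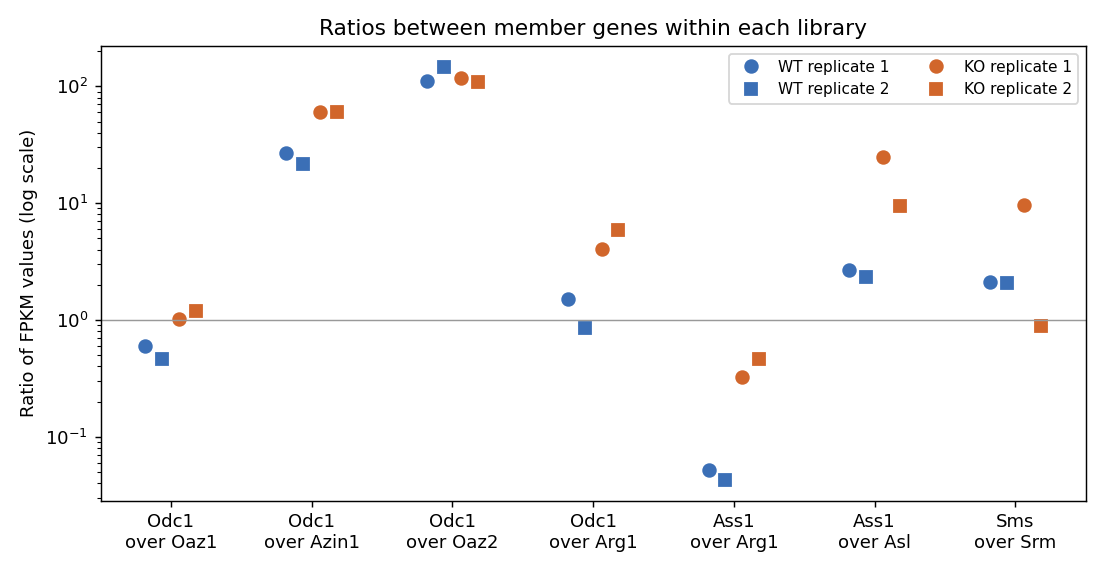
Ratios of FPKM values between pairs of members within each library, on a log axis, with colours for WT and KO and symbols for replicates 1 and 2. Odc1 over Oaz1, Azin1 and Arg1 and Ass1 over Arg1 and Asl lie higher in both KO libraries than in both WT libraries. Odc1 over Oaz2 overlaps, and Sms over Srm lies on either side of the WT values in KO.

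The enzymes that extend putrescine and the acetylase that opens polyamine breakdown did not show a common direction. Srm (gene 20810) was at 9.59 and 7.71 FPKM in WT, against 2.49 and 25.8 FPKM in KO. The KO libraries lay on either side of WT, 2.94 apart on the log2 scale, where the median gap between libraries of a group was 0.44 over all genes tested. The log2 fold change of Srm, 0.01 (SE 0.82), ran from -1.46 without KO replicate 2 to 1.48 without KO replicate 1, so no direction can be given. Sms (gene 20603) was at 20.1 and 15.9 FPKM in WT, against 24.0 and 22.9 FPKM in KO. The groups were apart by less than the spread within WT, with a log2 fold change of 0.37 (SE 0.34). Sat1 (gene 20229) was at 373 and 393 FPKM in WT, against 327 and 535 FPKM in KO. Its groups overlapped, and the log2 fold change of 0.13 (SE 0.25) was -0.23 without KO replicate 2.

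**Figure D3:**
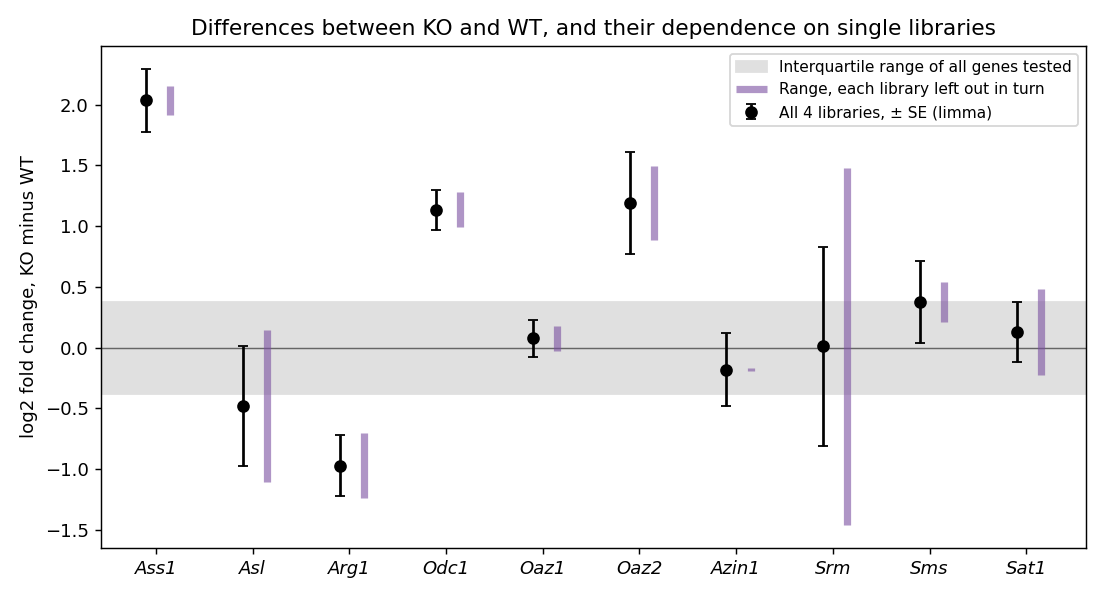
The log2 fold change of each member, KO minus WT, with its SE from limma (black), its range when each of the 4 libraries was left out in turn (purple) and the interquartile range of all genes tested (grey, -0.38 to 0.37). With all libraries, Ass1, Odc1, Oaz2, Arg1 and Asl lie outside the grey band, Sms lies at its upper edge, and the ranges of Asl, Oaz1, Srm and Sat1 cross 0.

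On GRCm38.p6 the members are spread over 8 chromosomes. Ass1 lies on chromosome 2 from 31470270 to 31520670, Asl on chromosome 5 from 130011258 to 130024381 and Arg1 on chromosome 10 from 24915207 to 24927470. Odc1 lies on chromosome 12 from 17544808 to 17551502, Oaz1 on chromosome 10 from 80826656 to 80829290, Oaz2 on chromosome 9 from 65676548 to 65690300 and Azin1 on chromosome 15 from 38487430 to 38519294. Srm lies on chromosome 4 from 148591513 to 148594619, Sms on chromosome X from 157443851 to 157492287 and Sat1 on chromosome X from 155213126 to 155216449. RefSeq also annotates pseudogenes of Oaz1, Oaz2 and Sms, so the values of these 3 genes are uncertain to the extent that reads were shared with such copies.

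Mast cell markers and the basophil genes Mcpt8 and Prss34 stood higher in KO beside Ass1, Odc1 and Oaz2. The 9 mast cell markers in the table summed to 15984 and 13391 FPKM in WT and to 24998 and 39221 FPKM in KO. Cma1, the largest term of this sum in each library, was at 6922 and 5622 FPKM in WT, against 9525 and 17278 FPKM in KO. Mcpt4 was at 950 and 960 FPKM in WT, against 2113 and 2286 FPKM in KO. The markers thus differed in their spread between the KO libraries. The mast cell carboxypeptidase gene Cpa3 was at 4027 and 4038 FPKM in WT, 4411 in KO replicate 1 and 9713 in KO replicate 2, and the tryptase gene Tpsb2 at 3321, 2174, 7584 and 8155 FPKM in the same order. The basophil protease gene Mcpt8 was at 117 and 43.4 FPKM in WT, against 159 and 154 FPKM in KO. Of the 6 basophil and eosinophil markers, 2 were higher in both KO libraries (18.5% of all genes tested were). Of the same 6, 3 were lower (20.6% of all genes tested were). The part of mast cells and basophils in the differences of Ass1, Odc1, Oaz2 and Arg1 was not tested.

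Markers of macrophages, which also use Arg1 and Ass1, were mostly near 0. Of 14 macrophage and monocyte markers in the table, 8 were under 1 FPKM in every library, and Csf1r, Fcgr1 and Ly6c2 were listed at 0 in all 4. The list summed to 393 and 503 FPKM in WT and to 274 and 163 FPKM in KO, most of it from Ccr2, a chemokine receptor gene, at 392, 496, 270 and 149 FPKM. The red blood cell sum was 53232 and 84123 FPKM in WT and 67479 and 26662 FPKM in KO, and its groups overlapped. With each library scaled to a common total without haemoglobin genes, the log2 fold changes were 2.14 for Ass1, 1.24 for Odc1, 1.28 for Oaz2 and -0.87 for Arg1. The other lists summed to at most 140 FPKM in any library for adipocyte, stromal, endothelial, B cell, NK cell and neutrophil markers, and T cell markers to 194 to 269 FPKM, nearly all from Cd3g.

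**Figure D4:**
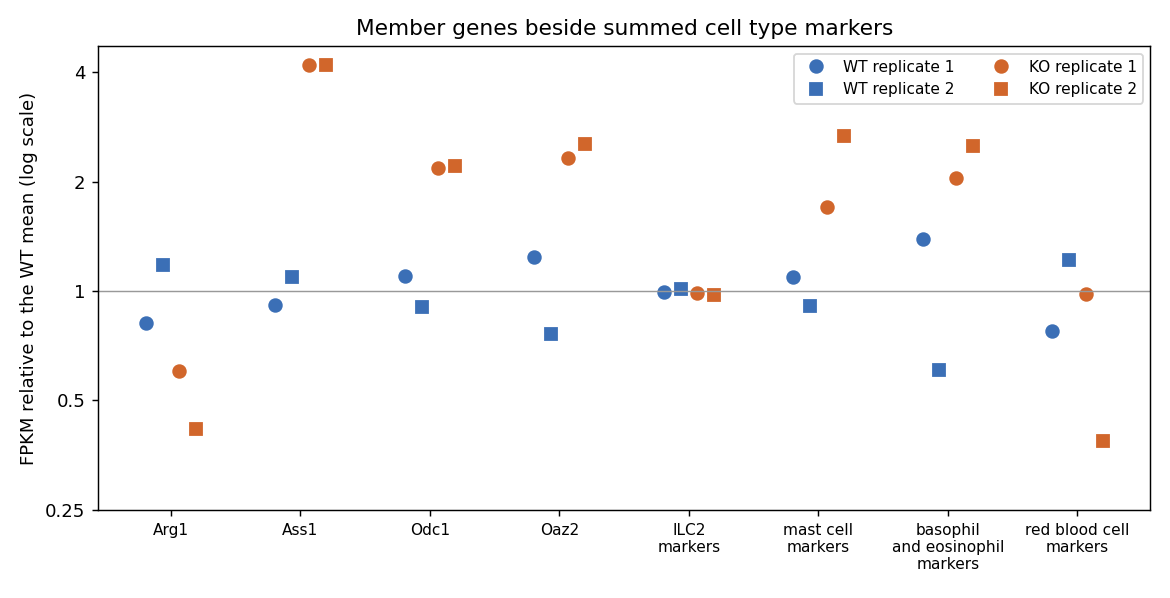
FPKM relative to the WT mean, on a log axis, for 4 members and for summed markers of ILC2s, mast cells, basophils and eosinophils, and red blood cells in each library. The ILC2 sum, of which Id2 is the largest term, lies between 0.97 and 1.01. Of its 14 markers, 4 are lower in both KO libraries (20.6% of all genes tested are) and 1 is higher (18.5% are). Ass1 lies at 4.18 and 4.19 in KO, and mast cell markers lie at 1.70 and 2.67 in KO.

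Among the other genes of these pathways, 66 listed, 63 in the table and 38 tested, none was called (limma, 0 higher and 0 lower at an adjusted p under 0.05, with 1 at an unadjusted p under 0.05). Both KO libraries lay above WT in 8 of the 38 (18.5% of all genes tested did) and below it in 6 (20.6% of all genes tested), and the median log2 fold change was -0.16. The single gene at an unadjusted p under 0.05 was Paox, the polyamine oxidase that follows Sat1. Paox was at 5 and 10.4 FPKM in WT, against 3.86 and 0.49 FPKM in KO. The fitted difference was -1.62 on the log2 scale (SE 0.69; adjusted p = 0.538, limma). Smox, which oxidises spermine to spermidine directly, was at 10.3 and 13.1 FPKM in WT, against 21.2 and 20.95 FPKM in KO. The fitted difference was 0.80 on the log2 scale (SE 0.36; adjusted p = 0.543, limma), so both KO libraries were higher but the difference did not pass. Amd1, which makes the aminopropyl donor for Srm and Sms and has the near-identical copy Amd2, was at 30.8 and 32.6 FPKM in WT, against 36.5 and 44.7 FPKM in KO.

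Outside Oat and Ddah2, enzymes that use arginine or ornithine in other ways were at or near 0. The table held 13 such genes, of which 2 were tested. Oat, which turns ornithine toward proline or glutamate, was at 15.9 and 23.7 FPKM in WT, against 15.2 and 16.8 FPKM in KO, and Ddah2, of the family that breaks down methylated arginine, at 6.10 and 1.11 and at 9.84 and 7.75 FPKM. Arg2, the mitochondrial arginase, was at most 0.49 FPKM in any library, far below Arg1. The urea cycle genes Otc and Cps1 and the inducible nitric oxide synthase gene Nos2 were each at 0.01 FPKM or less. In the route between glutamate, proline and ornithine, 2 genes were tested, both at negative log2 fold changes. Aldh18a1, which starts proline synthesis from glutamate, was at 8.27 and 6.98 FPKM in WT, against 4.55 and 0.84 FPKM in KO. Prodh overlapped between groups.

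Through the hypusine genes, spermidine is attached to the translation factor eIF5A. The 3 that were tested had positive log2 fold changes without passing. Both KO libraries lay above both WT libraries in 1 of the 3, Dhps (18.5% of all genes tested did). Dhps, which carries out the first step, was at 21.2 and 13.04 FPKM in WT, against 26.9 and 32.8 FPKM in KO (log2 fold change 0.80, SE 0.37). Eif5a itself was at 569 and 432 FPKM in WT, against 638 and 516 FPKM in KO, and its groups overlapped. Dohh, the second enzyme, was at 0.13 and 8.67 FPKM in WT, against 5.50 and 12.4 FPKM in KO, and its groups overlapped. Of 12 methionine cycle and salvage genes tested, which supply and recycle the aminopropyl donor, 3 had positive log2 fold changes. Mat2a, which makes S-adenosylmethionine, was at 101 and 80.9 FPKM in WT, against 110 and 105 FPKM in KO, while Apip, Ahcyl2 and Mat2b overlapped between groups.

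Of 8 transport genes tested, 2 had positive log2 fold changes, and 0 were called. The median log2 fold change was -0.31, and that of all genes tested was -0.01. Both KO libraries lay below both WT libraries in 3 of the 8 (20.6% of all genes tested did) and above them in 0 (18.5% of all genes tested). Atp13a3, a polyamine transporter gene, was at 27.8 and 29.3 FPKM in WT, against 14.6 and 20.1 FPKM in KO (log2 fold change -0.71, SE 0.34). Slc7a1, a transporter of arginine, was at 8.83 and 9.27 FPKM in WT, against 8.08 and 5.47 FPKM in KO, and Slc7a6, which exchanges cationic amino acids as a partner of Slc3a2, at 6.37 and 9.27 and at 5.50 and 3.08 FPKM. Slc3a2 overlapped, at 147 to 202 FPKM. Of 6 tested genes that supply aspartate to Ass1 or take up the fumarate left by Asl, 3 were higher in both KO libraries, where 18.5% of all genes tested were. These were Got1 (20.4 and 21.2 against 25.4 and 27.1 FPKM), Mdh1 (161 and 152 against 180 and 179 FPKM) and Mdh2 (219 and 233 against 293 and 255 FPKM), WT first, and Fh1 overlapped. The arginine sensor gene Castor1 and the lysosomal sensor gene Slc38a9 overlapped between groups.

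**Figure D5:**
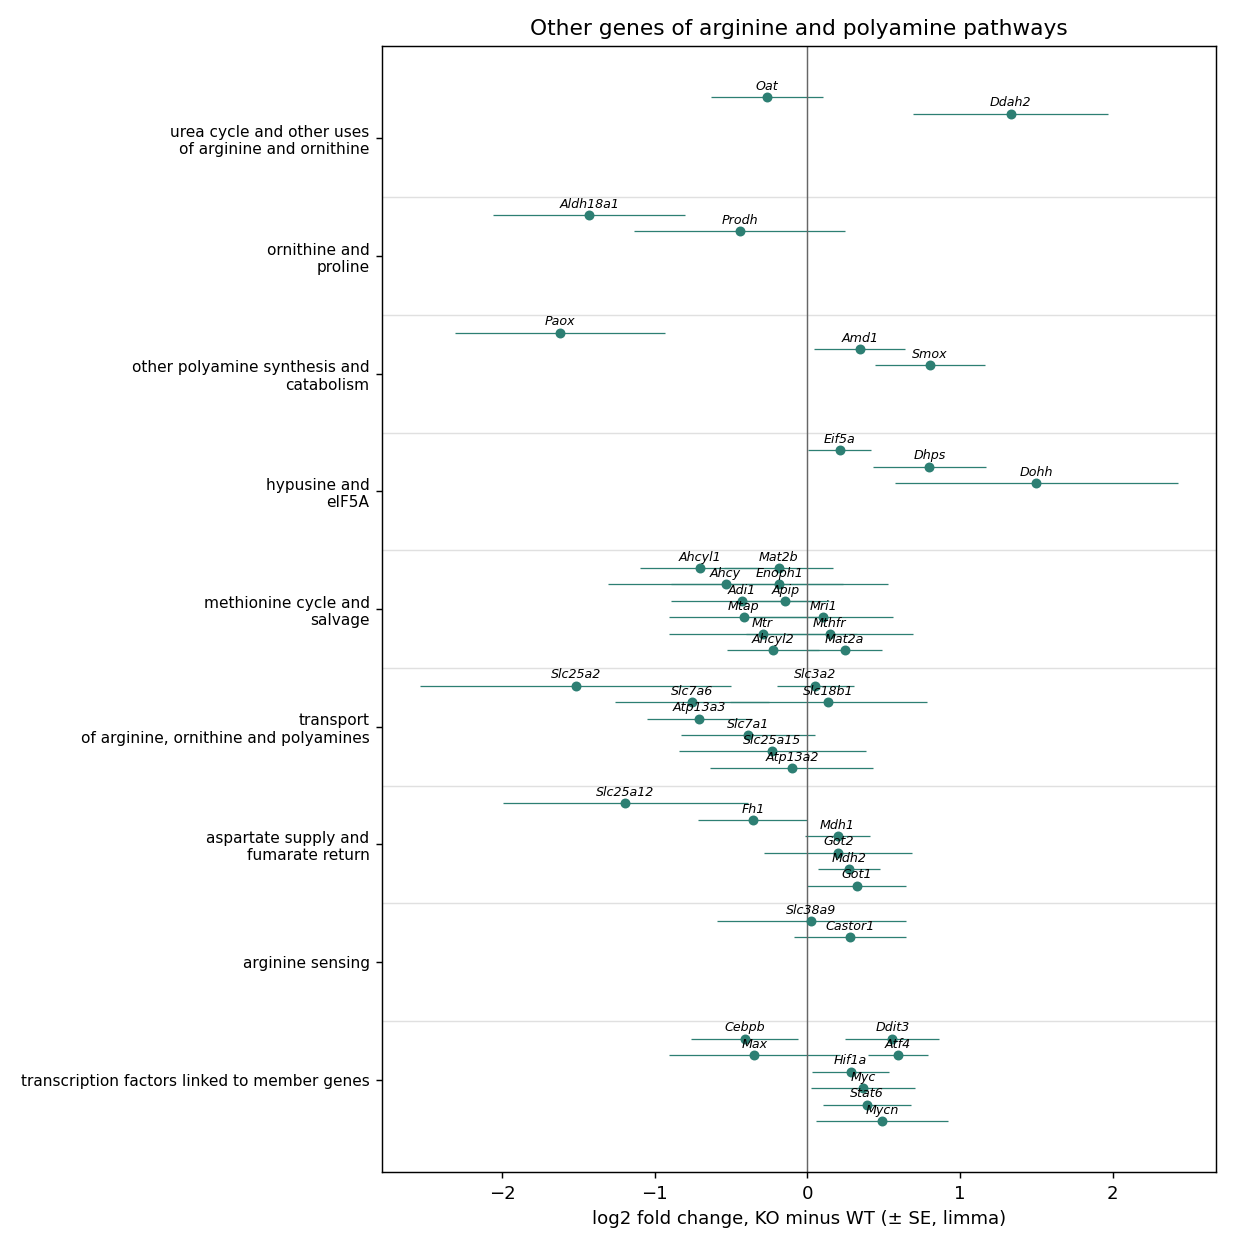
The log2 fold change, KO minus WT, with its SE from limma for the tested genes of 9 lists around the members. None passed the test. The tested hypusine genes lie right of 0, with only Dhps apart between groups. The tested genes of ornithine and proline lie left of 0, with only Aldh18a1 apart.

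Of 8 transcription factor genes linked to members in the literature, 0 were called (limma, adjusted p under 0.05) and 1, Atf4, had an unadjusted p under 0.05. Atf4, which drives amino acid response genes, was at 220 and 242 FPKM in WT, against 334 and 363 FPKM in KO. The fitted difference was 0.59 on the log2 scale (SE 0.20; adjusted p = 0.380, limma). Stat6, through which IL-4 and IL-13 act on Arg1 in mouse macrophages, was at 48.4 and 37.2 FPKM in WT, against 51.9 and 60.1 FPKM in KO. Ddit3 overlapped and Hif1a was at 75.9 and 69.5 FPKM in WT, against 80.9 and 97.2 FPKM in KO. Both KO libraries lay above both WT libraries in 4 of the 8 genes (18.5% of all genes tested did) and below them in 1 (20.6% of all genes tested).

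Likeness to Arg1, Ass1 and Odc1 was measured as the distance between centred log2(FPKM + 1) values over the 4 libraries. The ranking covered 6012 further genes whose mean reached 5 FPKM, with predicted genes (Gm and Rik symbols) left out. Nearest to Odc1 were Mrgprx2, Icos and Zgpat, at distances of 0.08, 0.09 and 0.09. Mrgprx2, the nearest, was at 11.3 and 9.52 FPKM in WT, against 22.9 and 22.7 FPKM in KO. Icos, a costimulatory receptor gene, was at 136 and 120 FPKM in WT, against 273 and 280 FPKM in KO. Zgpat was at 3.81 and 3.27 FPKM in WT, against 8.91 and 9.39 FPKM in KO. Nearest to Arg1 were Insl6, Zfp992 and Suclg2, at 0.11 to 0.15, and nearest to Ass1 were Cdk10, Mfsd10 and Dpp4, at 0.30 to 0.35. With 4 libraries such a ranking rests on few points and is a description.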

How the data were processed

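RNA was measured in 4 libraries of sorted ILC2s, grouped by sample title into WT and KO (2 each). The authors deposited 1 table of FPKM values rounded to 2 decimals, per the file headers. The tools named are Bowtie2, RSEM and DESeq2, with the build GRCm38.p6, per the submitters' processing notes. How they were set, and whether strand was used, is not given in the sources used here, and the table gives FPKM without counts. FPKM depends on transcript length and on each library's total, so abundant genes shift the values of others. Coordinates and gene identities came from RefSeq for GRCm38.p6, which held 19034 of the 19088 gene identifiers.

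The test was run on log2(FPKM + 1) with limma 3.58.1 in R 4.3.3 (trend and robust variance moderation, group as the term) over genes whose mean reached 1 FPKM, two-sided, with Benjamini-Hochberg adjustment over all genes tested. The log2(FPKM + 1) scale understates changes of low genes. With 2 libraries a group, exact permutation gives no p below 0.333 and was left out. The code was tested on simulated data. Alternatives covered the pseudocount, the filter, scaling, variance moderation, a replicate block and each library left out.

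The members and lists were chosen with earlier results of these data known. Named genes are the members, Stk11, up to 4 tested genes of the highest level in each pathway list, the 3 nearest genes to Arg1, Ass1 and Odc1, and defining markers. Arg2, Otc, Cps1, Nos2 and Amd2 were named after their values were seen. A listed gene of the pathways is not reported here and was left out of the counts over the lists.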

Additional observations from a re-analysis of the deposited data

How the results depend on the processing

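The 21 calls over all genes and the 2 among the members stood on the settings of the test. Both counts were 0 with a pseudocount of 0.1, without a filter on low values, with quantile normalization, without the trend and robust options and with the replicate number as a block (limma; smallest adjusted p 0.0501, 0.690, 0.0639, 0.438 and 0.0534). They were also 0 (range 0 to 0) when any 1 library was left out, at smallest adjusted p of 0.0612 to 0.332. Leaving out a library leaves 1 in its group, which is then assumed to vary like the other group. Median-ratio scaling left 1 call and 0 among the members. TPM scaling and scaling without haemoglobin genes gave 23 calls each, and a filter of 5 FPKM in 2 libraries gave 20, with 2 among the members in these 3. Over all alternatives, 0 of the other pathway genes were called (limma). Same-numbered libraries of the groups did not deviate together (correlation 0.025 across 9818 genes), and the labels do not tie the numbers to a pairing, so the block is a setting only. TPM scaling divides each library by its summed FPKM, which was 986027 and 1069520 in WT and 939623 and 943240 in KO. It shifted the median over all genes tested by 0.11 (log2). Under the alternatives that kept all libraries, the log2 fold change ran from 2.04 to 2.16 for Ass1, 1.14 to 1.31 for Odc1, 1.16 to 1.31 for Oaz2, -0.97 to -0.85 for Arg1 and -0.19 to -0.06 for Azin1. That of Srm took both signs, from -0.09 to 0.12. Why the summed FPKM differed between libraries, and the cause of the shifts under the other settings, was not tested. Depth is known roughly, so no counting intervals are given.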
